A study of Mus musculus with 23 samples.

Results

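Skeletal myotubes after 4 days of differentiation were compared with the proliferating myoblasts that give rise to such cells. The comparison used 6 of the 23 arrays of a series on mouse muscle development, chosen by their source labels, with 3 arrays of day 4 myotubes and 3 of proliferating myoblasts. Both groups were primary cells from male C57BL/6J mice, and all carried the same genotype as far as the labels say. The day 4 myotubes came from confluent myoblasts that were plated on Matrigel and then kept in DMEM with a low amount of horse serum. The proliferating myoblasts were at passages 8 to 10 and grew on collagen I in Ham's F-10 medium with fetal bovine serum and basic FGF. Titles number the cultures 21, 26 and 28, with 1 array of each number in both groups, and values below are given in that order. Replicates 1, 2 and 3 are cultures 21, 26 and 28. Medium, serum, growth factor, coating and cell density all differed between the groups, and their effects cannot be told apart from that of differentiation. The passage of the myotubes and the number of animals behind a culture are not given in the sources used here.

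A myoblast is a committed muscle precursor that divides while growth factors are present. When these are withdrawn, it leaves the cell cycle, fuses with its neighbours into a multinucleate myotube and builds sarcomeres, the contractile units of striated muscle. The switch is driven by basic helix-loop-helix factors of the MyoD family, which bind E-boxes in DNA together with E proteins, and by MEF2 factors. Id proteins hold E proteins away from DNA and so restrain the family in dividing cells.

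The arrays measure RNA from whole cultures in 1 colour, so fewer cells of a type and less RNA per cell cannot be told apart. A level below is the log2 of the scanner's processed signal minus the array's 75th percentile, and levels are compared only within a probe. Between 39.1% and 53.1% of spots were well above background on day 4 arrays and between 41.2% and 57.2% on proliferating arrays. The 75th percentile was lowest on both arrays of culture 21, at 207.6 intensity units for the day 4 myotubes and 87.7 for the proliferating myoblasts, against at most 580.3 and 624.1 units on other arrays of these groups. Across genes, which are not independent replicates, arrays correlated at r = 0.930 to 0.969 within day 4 myotubes, 0.872 to 0.967 within proliferating myoblasts and 0.791 to 0.890 between the groups. The array of proliferating myoblast replicate 1 stood apart, with r = 0.892 and 0.872 to the other two of its group.

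Of 17466 genes tested with limma, 1167 were higher and 903 lower in day 4 myotubes with an adjusted p below 0.05 and at least a 2-fold change, which is 6.68% and 5.17% of genes, or 11.9% together. The counts of called list members below are to be read beside these shares. Over the genes tested the median change was 0.03 on the log2 scale. Fitted changes over 16-fold were found in 253 genes called higher and 112 called lower. Called genes include 100 that no proliferating array and 56 that no day 4 array measured above background. A further 505 called genes were above background on 1 or 2 arrays of a group. For those named below, where it changes the fold by over 1.5 times, the fold is a lower bound (at least), with each array not above background set at its lowest signal well above it. The counts of higher and lower calls were 451 and 363 without day 4 myotube replicate 1, 482 and 291 without replicate 2, and 759 and 604 without replicate 3. They were 1388 and 1278 without proliferating myoblast replicate 1, 499 and 298 without replicate 2, and 600 and 521 without replicate 3.

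The largest increase measured on all 6 arrays was that of Myh4, the fast myosin heavy chain of glycolytic fibres. Its level was 8.23, 7.16 and 6.98 in day 4 myotubes, against -0.64, -2.47 and -2.61 in proliferating myoblasts. Every day 4 array stood far above every proliferating one (660-fold, log2 change 9.37 ± 0.64 SE, adjusted p = 0.00145 by limma). The next increases were those of the muscle protease gene Capn3 (123-fold), the prostaglandin D synthase gene Ptgds (101-fold), the hydrolase gene Cmbl (98.8-fold), the muscle creatine kinase gene Ckm (95.3-fold) and its mitochondrial counterpart Ckmt2 (88.0-fold). The protease inhibitor gene Serpinb1a (85.3-fold) and Tceal7 (82.0-fold) followed, and adjusted p was at most 0.00965 for these 8 genes. Some genes were above background on all 3 day 4 arrays and on no proliferating array, so only a lower bound of the fold is known. The largest bounds were those of the ligand gene Wnt10a (at least 104-fold), Thrsp, a gene of lipid synthesis (at least 94.7-fold), the extracellular superoxide dismutase gene Sod3 (at least 66.7-fold) and the inositol phosphate kinase gene Ip6k3 (at least 62.1-fold).

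Among decreases, Gzme, which encodes a granzyme, a serine protease of a family best known from cytotoxic lymphocytes, came first. It stood at -1.57, -0.90 and -0.54 in day 4 myotubes and at 6.30, 6.68 and 6.50 in proliferating myoblasts. The spread within each group was small beside the gap (181-fold, log2 change -7.5 ± 0.43, adjusted p = 0.000958 by limma). Sct, which encodes the peptide hormone secretin, had levels of 4.07, 2.88 and 0.08 in day 4 myotubes and 10.60, 9.76 and 9.04 in proliferating myoblasts (175-fold, adjusted p = 0.00519). Further decreases were those of the histone genes H1f5 (63.2-fold) and H2ac4 (48.7-fold), the chemokine gene Cxcl12 (42.1-fold), the protease gene Mcpt8 (36.5-fold), the glutamate transporter gene Slc1a6 (33.1-fold) and the centromeric histone gene Cenpa (log2 change -4.91). Gzmd was at least 76.9-fold lower, Nhlrc4 at least 20.4-fold, the cytokine gene Tnfsf11 at least 14.1-fold and Prtg at least 13.7-fold lower, with no day 4 array above background. Granzymes and replication-dependent histones have near-identical copies, so the assignment of these probes to single genes is uncertain. Of 13 leukocyte markers 5 were tested. Laptm5, which encodes a lysosomal membrane protein of blood cells, was called at least 5.48-fold lower, with 1 day 4 array above background, and was not called without day 4 myotube replicate 1 or 2 or proliferating myoblast replicate 1 or 3. Another 5 of the markers, Ptprc among them, were above background on no array. The 13 markers summed to 48.8 to 73.8 in day 4 myotubes and 25.6 to 95.5 in proliferating myoblasts, in units of the array's 75th percentile, and their part in the decreases was not tested.

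**Figure D1:**
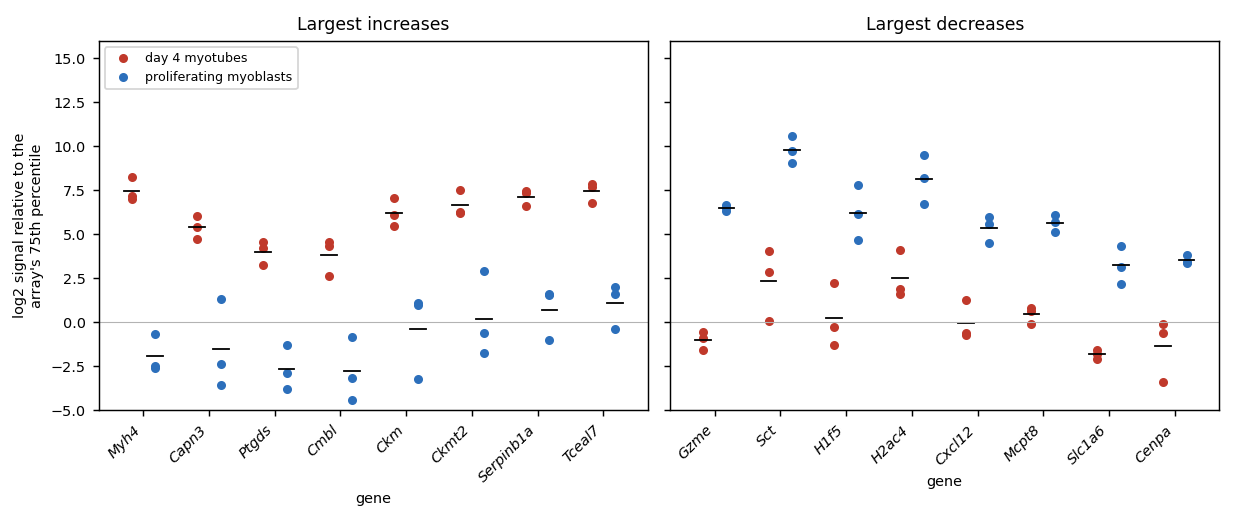
Level of the 8 genes with the largest increase (left) and the 8 with the largest decrease (right) among genes measured on all 6 arrays, as log2 signal over the 75th percentile of its array. Points are single arrays, black bars are group means, and red day 4 myotubes stand left of blue proliferating myoblasts. Only called genes with a RefSeq symbol and no overlap between the groups were eligible, so the gap in every gene shown follows from the choice.

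Among the MyoD family and its partners, 6 of 18 tested regulators were called higher and 1 lower, with a median log2 change of 0.53. The share called lower was near the 5.17% of all genes. Mef2c, a MEF2 factor of differentiating muscle, had levels of 3.05, 3.63 and 3.92 in day 4 myotubes and -0.99, -1.39 and -1.55 in proliferating myoblasts. No array of one group came near the other (28.8-fold, adjusted p = 0.00289 by limma). Myf6, the latest member of the family to appear, was 17.3-fold higher at 3.59, 0.09 and 2.13 in day 4 myotubes, against -0.71, -2.96 and -2.84 in proliferating myoblasts (adjusted p = 0.0289). The other called increases included the TEAD factor gene Tead4 (7.55-fold), the RNA-binding protein gene Rbm38 (4.94-fold) and Mef2d (4.69-fold), whereas Mef2a had a log2 change of 0.47 ± 0.62 (adjusted p = 0.75). Tcf3, whose protein products are E proteins, fell 3.73-fold (adjusted p = 0.0205). Leaving out day 4 myotube replicate 1, 2 or 3, or proliferating myoblast replicate 2 or 3, left 3 higher calls each and no lower call.

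The determination factor gene Myod1 and the differentiation factor gene Myog did not pass the test. Myod1 had levels of 4.80, 5.00 and 4.56 in day 4 myotubes, against 6.31, 6.38 and 5.93 in proliferating myoblasts. The groups did not overlap, but the log2 change of -1.42 ± 0.39 had an adjusted p of 0.0505 by limma, and 0.0354 with the culture as a block. Myog stood at 6.93, 7.81 and 6.78 in day 4 myotubes and at 6.07, 5.96 and 4.20 in proliferating myoblasts (log2 change 1.76 ± 0.60, adjusted p = 0.105, and 0.041 with the block). In all 3 cultures Myog was at its highest on day 1 of differentiation, at 8.13, 8.70 and 8.03, and lower on day 2, at 7.89, 8.28 and 7.55. Myf5, the early member of the family, was above background on no array of either group and was not tested.

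Of 22 tested genes of the myoblast and satellite cell state, 4 were called higher and 4 lower, against 6.68% and 5.17% of all genes. Pax7, the satellite cell factor gene, had levels of 0.68, 0.87 and -0.02 in day 4 myotubes and 1.61, 3.87 and 2.67 in proliferating myoblasts, which did not overlap (log2 change -2.21 ± 0.61, adjusted p = 0.055 by limma, and 0.0301 with the block). Decreases were called for Cd34, a surface protein gene of quiescent satellite cells (12.8-fold), the adhesion molecule gene Vcam1 (5.45-fold), the syndecan gene Sdc3 (3.94-fold) and Met, the hepatocyte growth factor receptor gene (3.52-fold). Increases were called for the Notch target Heyl (at least 7.14-fold, with 2 proliferating arrays above background), the dystroglycan gene Dag1 (9.01-fold), the FGF antagonist gene Spry1 (7.63-fold) and the integrin gene Itga7 (3.06-fold). The 4 decreases became 0 without day 4 myotube replicate 1 or 2 or proliferating myoblast replicate 2, 1 without proliferating myoblast replicate 3, and 7 without proliferating myoblast replicate 1. The increases became 2 without day 4 myotube replicate 1 or 2 or proliferating myoblast replicate 3, and 3 without any 1 of the other arrays. Itga7 was called in none of the 6 fits with 1 array left out.

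Id1, Id2 and Id3 were all lower in day 4 myotubes. Id3 stood at 2.83, 0.81 and 3.26 in day 4 myotubes and at 7.23, 7.20 and 6.43 in proliferating myoblasts (25.2-fold lower, adjusted p = 0.00638 by limma). Id1 fell 12.9-fold (adjusted p = 0.00447) and Id2 7.5-fold (adjusted p = 0.0162). Snai2, which encodes a repressor that competes at E-boxes, fell 8.05-fold (adjusted p = 0.00838). In the list of Id proteins and repressors, 5 of 16 tested genes were called lower and 3 higher, and its median change of 0.14 was near that of all genes. The 3 higher ones were Bhlhe40 (11.3-fold), Zeb1 (6.00-fold) and the deacetylase gene Hdac9 (at least 3.45-fold), and 2 proliferating arrays measured Bhlhe40 above background and 1 Hdac9. Without day 4 myotube replicate 1 or 2 or proliferating myoblast replicate 2, 3 members were called lower, and without the last 2 of these 1 was called higher. Id1, Id3, Snai2 and Bhlhe40 were called in all 6 fits with 1 array left out, Hdac9 in 4, Id2 in 2 and Zeb1 in 1.

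Of 29 tested fusion genes, 4 were called higher and 2 lower (median 0.42), and the share called lower was near the 5.17% of all genes. Mymk, which encodes the membrane protein myomaker that myoblasts need to fuse, had levels of 7.51, 7.42 and 7.75 in day 4 myotubes and 4.71, 4.84 and 2.59 in proliferating myoblasts. Its increase was 11.4-fold (adjusted p = 0.0121 by limma). Mymx, which encodes its partner myomixer, stood at 6.17, 7.10 and 6.05 in day 4 myotubes, against 5.41, 4.70 and 3.34 in proliferating myoblasts (log2 change 1.96 ± 0.61, adjusted p = 0.0789, and 0.0395 with the block). On day 2 Mymx was higher than on day 4 in all 3 cultures, at 8.45, 8.43 and 7.83. Nfatc2, the gene of a calcium-dependent factor known for myotube growth, was at least 20.9-fold higher, with 1 proliferating array above background, the caveolin gene Cav3 17.1-fold and Dysf, the gene of the membrane repair protein dysferlin, 9.66-fold. The 2 called decreases were those of the phagocytosis receptor gene Adgrb1 (7.89-fold, with 1 day 4 array above background) and of Dock1, an activator of Rac (3.57-fold). Without day 4 myotube replicate 1 or 2 or proliferating myoblast replicate 2 no decrease was called, and 1 was called without proliferating myoblast replicate 3.

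**Figure D2:**
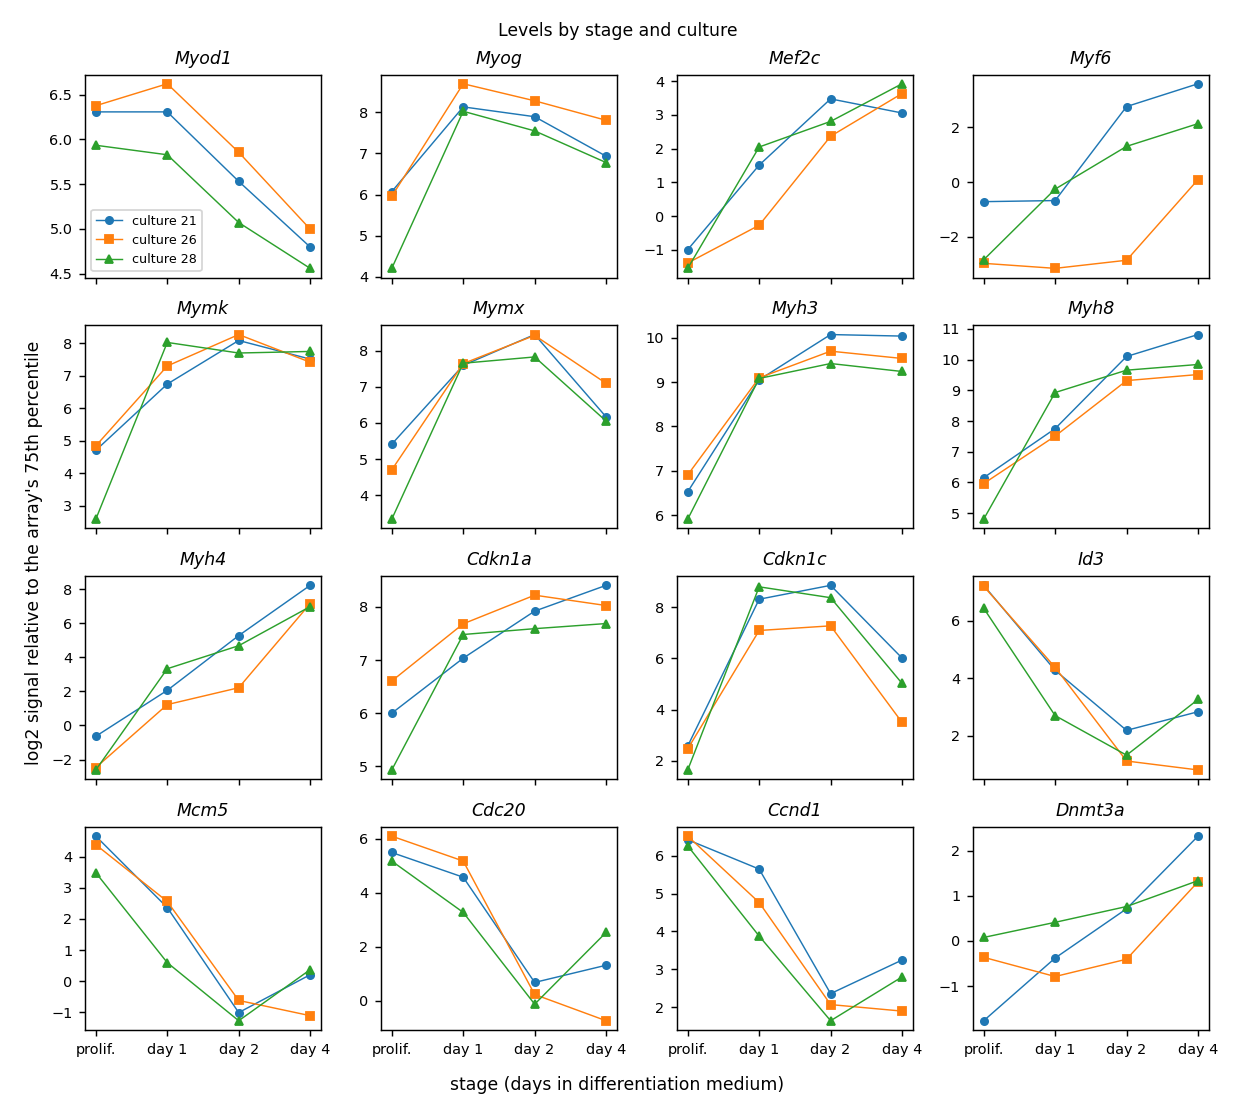
Level of 16 genes (log2 signal over the 75th percentile of its array, a scale of its own per gene) in proliferating myoblasts and after 1, 2 and 4 days in differentiation medium, with a line and a symbol for each of cultures 21, 26 and 28. Myog peaks on day 1 and Mymx on day 2 in all 3 cultures, while Myh4 is highest on day 4.

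The 4 sarcomere lists had the highest medians of the 36 lists. Of 20 tested genes of adult fast fibres, 18 were called higher and none lower, with a median log2 change of 4.84. The list of embryonic and neonatal sarcomere genes had 12 of 16 called higher (median 3.17), that of slow fibres 11 of 15 higher and 1 lower (median 3.49), and that of Z disc, M band and scaffold genes 28 of 38 higher (median 3.72). These stand against 6.68% of all genes called higher. Left out 1 at a time, the arrays gave 11 to 19 calls for the fast list and 19 to 31 for the scaffold list, each lowest without proliferating myoblast replicate 2. The embryonic list gave 3 calls without day 4 myotube replicate 1 or 2, 5 without proliferating myoblast replicate 2, and 7 without day 4 myotube replicate 3 or proliferating myoblast replicate 3. The slow list gave 6, 5 and 7 calls without day 4 myotube replicate 1, 2 and 3, and 6 without proliferating myoblast replicate 2.

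The promoters of Myh4 and of Chrng, which encodes the fetal subunit of the acetylcholine receptor, were chosen because motifs of the muscle regulators lie in them. Both are given from 250 bases before to 50 bases after the gene's start, from RefSeq on build GRCm38.p6, Myh4 at chr11:67237562-67237861 and Chrng at chr1:87205561-87205860, both on the plus strand. Capitals mark E-boxes (CANNTG), a MEF2 site and a CArG box, the site of serum response factor.
Myh4: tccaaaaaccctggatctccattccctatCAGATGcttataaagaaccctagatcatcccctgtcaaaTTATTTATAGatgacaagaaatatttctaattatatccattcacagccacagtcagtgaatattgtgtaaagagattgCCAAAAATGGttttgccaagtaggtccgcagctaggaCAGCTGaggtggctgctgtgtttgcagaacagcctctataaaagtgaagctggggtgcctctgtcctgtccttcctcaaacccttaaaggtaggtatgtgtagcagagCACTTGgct
Chrng: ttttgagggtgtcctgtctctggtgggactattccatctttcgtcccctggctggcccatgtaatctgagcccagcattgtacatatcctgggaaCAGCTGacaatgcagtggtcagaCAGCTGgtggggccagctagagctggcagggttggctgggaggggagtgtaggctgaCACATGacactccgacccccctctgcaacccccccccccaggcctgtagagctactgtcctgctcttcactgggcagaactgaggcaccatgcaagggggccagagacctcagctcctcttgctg

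In Myh4 the MEF2 site lies at -182 to -173, the CArG box at -104 to -95 and the E-box CAGCTG at -67 to -62 from the start. Chrng holds CAGCTG at -155 to -150 and at -132 to -127. Of the 83 genes called higher in the sarcomere and excitation-contraction lists, 63 had a promoter window, and 30 of these (47.6%) held CAGCTG on either strand, against 18.3% of the 9774 tested genes with a window and 18.3% of all 27025 windows. A MEF2 site was in 12 of the 63 (19%), against 2.29% of tested genes and 3.7% of all windows. The CArG box was in 5 of the 63 (7.94%), against 1.77% of tested genes and 1.81% of all windows. Any E-box CANNTG was common in each of these sets, at 87.3% of the 63, 67.9% of tested genes and 75% of all windows. CAGCTG is one of the forms of CANNTG, and a match is a run of letters, not a measured binding site.

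The developmental myosin genes Myh3 and Myh8 were measured before differentiation and were higher on day 4. Myh3, the embryonic myosin heavy chain gene, had levels of 10.04, 9.53 and 9.24 in day 4 myotubes and 6.53, 6.91 and 5.91 in proliferating myoblasts (8.92-fold, adjusted p = 0.0062 by limma). Myh8, the neonatal form, was 21.3-fold higher (adjusted p = 0.00472). Of the other adult fast myosin genes, Myh1 was 19.6-fold and Myh2 at least 35.5-fold higher, with 1 proliferating array above background. Levels of Myh2 were 0.89, 1.46 and 2.87 in day 4 myotubes, against -2.62, -6.19 and -3.97 in proliferating myoblasts. Myh7, the slow myosin gene, had levels of 4.29, 6.54 and 7.20 in day 4 myotubes and 5.09, 4.81 and 3.83 in proliferating myoblasts. Its groups overlapped, because culture 21 was lower on day 4 than before (log2 change 1.43 ± 0.77, adjusted p = 0.302).

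Acta1, the skeletal actin gene, stood at 10.48, 10.04 and 9.78 in day 4 myotubes and at 8.21, 7.06 and 5.43 in proliferating myoblasts (9.19-fold, adjusted p = 0.0222 by limma). The cardiac actin gene Actc1 was 4.73-fold higher (adjusted p = 0.0271), the troponin genes Tnnt3 and Tnni1 16.1-fold and 11.2-fold, and the light chain gene Mylpf 11-fold. In Acta1, Tnnt3, Tnni1 and Mylpf culture 21 was the highest and culture 28 the lowest in both groups. The 75th percentile had the opposite order in both groups, and its part in these values was not tested. In thick filaments the binding protein gene Mybph was 15.9-fold and Mybpc1 36.0-fold higher. Mybpc2 was at least 103.8-fold higher, at 4.61, 2.65 and 2.67 in day 4 myotubes and -0.96, -5.38 and -6.82 in proliferating myoblasts, with 1 proliferating array above background. The ventricular and slow light chain gene Myl2 was 27.0-fold higher (adjusted p = 0.0295). Ttn, the gene of the giant spring protein titin, was 12.8-fold higher (adjusted p = 0.0148).

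At the Z disc, Myot was 63.3-fold, Ankrd23 43.5-fold, the titin cap gene Tcap 30.4-fold and the actinin gene Actn2 29.6-fold higher. Tcap had levels of 9.42, 9.19 and 8.10 in day 4 myotubes, against 6.13, 3.55 and 2.26 in proliferating myoblasts. Mb, which encodes the oxygen store myoglobin, was 23.9-fold higher at 8.29, 8.51 and 7.50 in day 4 myotubes and 4.86, 3.26 and 2.43 in proliferating myoblasts (adjusted p = 0.00638 by limma). The exception in the slow list was Tpm3, a tropomyosin gene with muscle and non-muscle forms. Its brighter probe fell 3.07-fold (adjusted p = 0.0306), while its other probe above background had a log2 change of 4.11 in the opposite direction, so no single direction can be given for the gene.

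Of 24 tested genes of excitation-contraction coupling, which turns a membrane potential into calcium release, 16 were called higher and none lower (median 2.69). The calsequestrin genes, whose products store calcium in the sarcoplasmic reticulum, were 79.5-fold (Casq1) and 20.7-fold (Casq2) higher. Casq1 stood at 5.72, 4.56 and 5.00 in day 4 myotubes and at 1.09, -2.39 and -2.35 in proliferating myoblasts (adjusted p = 0.00662 by limma). Trdn, the gene of the junction protein triadin, was 45.1-fold higher, with 2 proliferating arrays above background, the calcium-binding protein gene Hrc 28-fold and the calcium release channel gene Ryr1 14.9-fold. Without day 4 myotube replicate 1, 10 members were called.

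Of 18 tested genes of the neuromuscular junction, 3 were called higher (median 1.24), against 6.68% of all genes. Colq, which anchors acetylcholinesterase at the synapse, was 17.5-fold higher (adjusted p = 0.00781 by limma). Chrne, the adult receptor subunit gene, was at least 5.24-fold higher, with 1 proliferating array above background, at -1.69, -1.18 and -0.96 in day 4 myotubes and -2.88, -6.61 and -4.73 in proliferating myoblasts. Chrng rose 4.07-fold, at 4.09, 3.52 and 4.30 in day 4 myotubes and 2.33, 2.41 and 1.10 in proliferating myoblasts (adjusted p = 0.0358). The subunit gene Chrnd had a log2 change of 1.43 ± 0.39 (adjusted p = 0.0511, and 0.0434 with the block), and with the block 6 members of the list were called. Leaving out any 1 array other than proliferating myoblast replicate 1 left 1 call. In the dystrophin glycoprotein complex, which links the cytoskeleton to the matrix, 4 of 16 tested genes were called higher and 1 lower (median 1.07). Among them Dtna, the alpha-dystrobrevin gene, was 4.50-fold and Sgcb 3.87-fold higher, and Dtnb was 2.95-fold lower. The share called lower was near the 5.17% of all genes. Without proliferating myoblast replicate 1 the list had 7 higher calls, and it had 2 higher calls without day 4 myotube replicate 1 or 2 or proliferating myoblast replicate 3. Dtnb was called in none of the 6 fits with 1 array left out, and no other member was called lower in them.

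**Figure D3:**
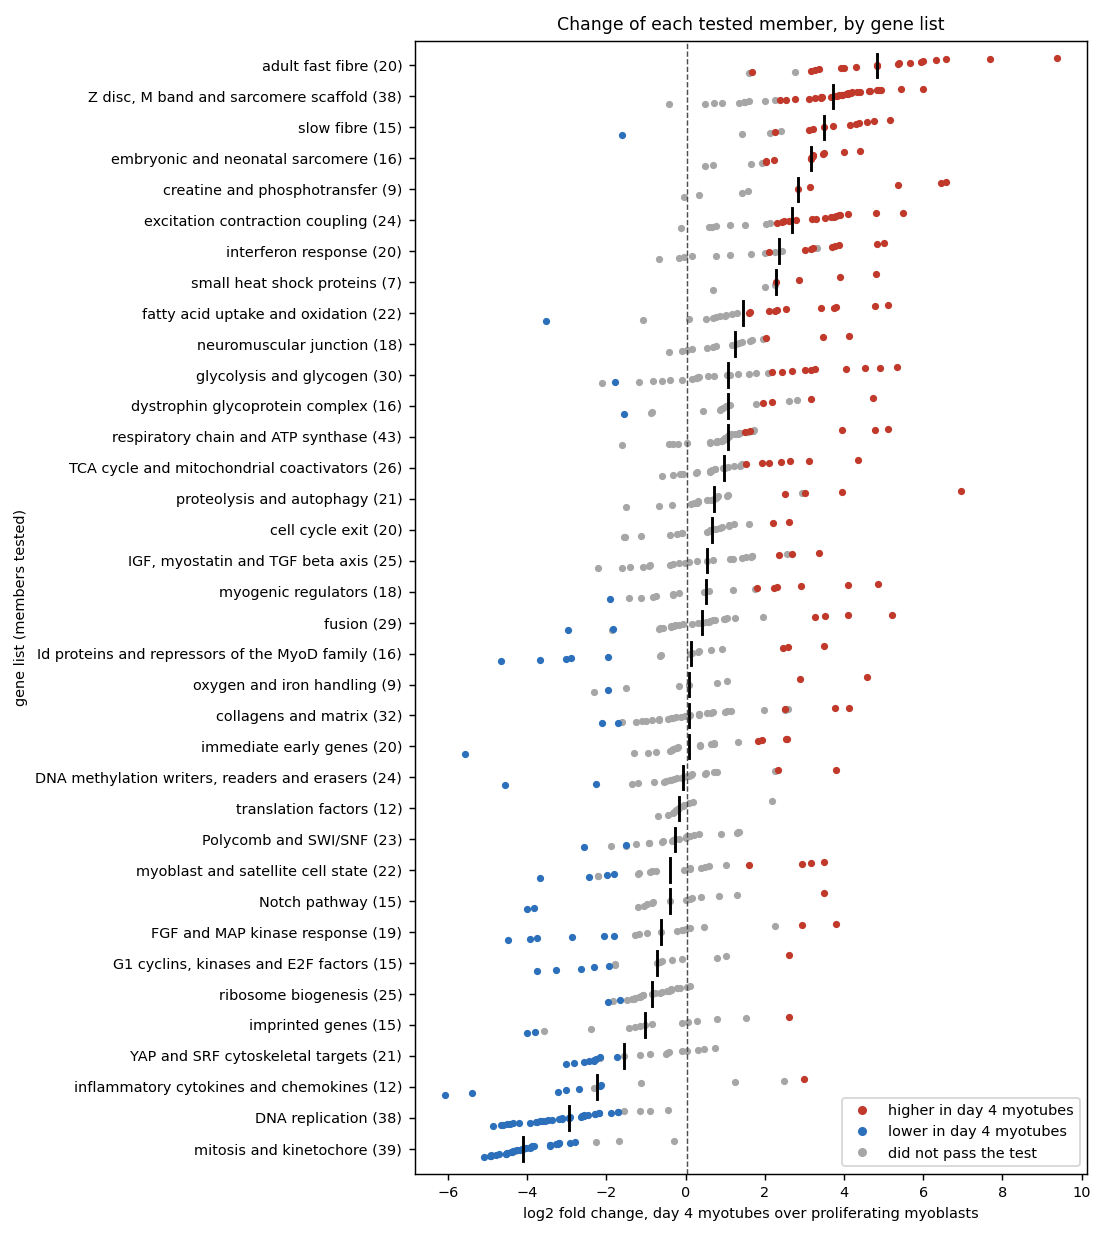
Log2 fold change, day 4 myotubes over proliferating myoblasts, of each tested member of 36 gene lists, ordered from the highest median at the top to the lowest. Red points were called higher, blue points lower and grey points did not pass; black bars are list medians and the dashed line is the median of all genes tested, 0.03. Sarcomere lists lie to the right, replication and mitosis lists to the left.

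The cell cycle lists moved the opposite way. Of 38 tested genes of DNA replication, 34 were called lower and none higher (median -2.96), and of 39 genes of mitosis and the kinetochore, 33 were called lower and none higher (median -4.11), against 5.17% of all genes called lower. Exo1, a nuclease gene of DNA repair and replication, stood at -1.54, -4.07 and -1.75 in day 4 myotubes and at 2.25, 2.58 and 2.42 in proliferating myoblasts (29.2-fold lower, adjusted p = 0.00592 by limma), with 2 day 4 arrays above background. The thymidine kinase gene Tk1 fell 25.3-fold and the chromatin assembly gene Chaf1b 22.7-fold, and the licensing factor gene Cdc6 was at least 9.76-fold lower. Without day 4 myotube replicate 2 or proliferating myoblast replicate 2, the replication list had 22 and 21 calls.

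In mitosis the kinesin gene Kif23 was at least 13.2-fold, the checkpoint kinase gene Bub1 at least 11.7-fold and the kinase gene Nek2 at least 15.3-fold lower, each with 1 day 4 array above background. For Top2a and Cdk1 there were 2 such arrays. Top2a, the gene of the enzyme that untangles chromosomes, had levels of -1.98, -4.64 and 0.12 in day 4 myotubes and 1.12, 3.04 and 2.58 in proliferating myoblasts (21.3-fold lower, adjusted p = 0.0395 by limma). The proliferation marker gene Mki67 was lower in each culture, at -0.73, -2.58 and 2.32 in day 4 myotubes and 2.22, 4.87 and 5.05 in proliferating myoblasts. Its highest day 4 array lay just above its lowest proliferating one (log2 change -4.38 ± 1.25, adjusted p = 0.0596, and 0.0252 with the block). Cdk1, the kinase gene of mitotic entry, had a log2 change of -4.30 ± 1.35 as measured (adjusted p = 0.0814). The mitosis list had 13 calls without day 4 myotube replicate 1, 17 without replicate 2, 7 without proliferating myoblast replicate 2 and 15 without replicate 3.

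The promoters of Mcm6, a gene of the replicative helicase, and of Cdc20, an activator of the ubiquitin ligase that ends mitosis, were chosen after their values were seen, to show the motifs in which the 2 lists differ. They come from RefSeq on GRCm38.p6, Mcm6 at chr1:128359656-128359955 and Cdc20 at chr4:118437294-118437593, both on the minus strand and read 5′ to 3′ along the gene. Capitals mark E2F sites (TTTCCCGC or TTTGGCGC) in Mcm6, and in Cdc20 the CCAAT box and the cell cycle homology region (TTTGAA).
Mcm6: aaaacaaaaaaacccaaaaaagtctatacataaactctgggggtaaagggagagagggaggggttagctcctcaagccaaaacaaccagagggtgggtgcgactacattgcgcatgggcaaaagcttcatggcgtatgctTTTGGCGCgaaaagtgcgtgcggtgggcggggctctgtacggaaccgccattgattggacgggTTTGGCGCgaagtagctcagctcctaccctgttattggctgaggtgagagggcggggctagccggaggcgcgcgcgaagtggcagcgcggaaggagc
Cdc20: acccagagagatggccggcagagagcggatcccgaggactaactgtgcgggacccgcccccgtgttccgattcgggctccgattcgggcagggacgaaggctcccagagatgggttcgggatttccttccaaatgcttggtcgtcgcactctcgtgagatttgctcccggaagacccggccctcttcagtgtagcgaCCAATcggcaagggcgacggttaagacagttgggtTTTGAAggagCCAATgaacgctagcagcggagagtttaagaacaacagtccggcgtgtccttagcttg

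Mcm6 stood at 3.15, 1.16 and 3.35 in day 4 myotubes and at 6.08, 6.38 and 5.84 in proliferating myoblasts (11.7-fold lower, adjusted p = 0.0111 by limma). Cdc20 stood at 1.31, -0.74 and 2.52 in day 4 myotubes and at 5.48, 6.09 and 5.17 in proliferating myoblasts (23.4-fold lower, adjusted p = 0.0106). Of the called replication genes 28 had a promoter window, and 10 of these (35.7%) held an E2F site on either strand, against 3.2% of tested genes and 1.8% of all windows. Of the called mitosis genes 27 had a window, and none held this E2F site. TTTGAA was in 20 of the 27 mitosis windows (74.1%) and in 3 of the 28 replication windows (10.7%), against 14.3% of tested genes and 20.2% of all windows. CCAAT was in 21 of 27 mitosis windows (77.8%) and 16 of 28 replication windows (57.1%), against 42.3% of tested genes and 41.1% of all windows.

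Cell cycle genes were not at their lowest on day 4 in every culture. On day 2 every one of the 39 mitosis genes was below its proliferating level in all 3 cultures. Between day 2 and day 4, 37 of the 39 rose in level in culture 28 (median difference 2.51) and 30 in culture 21 (median 0.64), but 12 in culture 26 (median -0.46). Mki67 in culture 28 was -1.13 on day 2 and 2.32 on day 4, against -1.40 and -2.58 in culture 26. These are differences between single arrays and were not tested. Of the 39 genes, 22 were above background on all 6 arrays of day 4 myotubes and proliferating myoblasts. In culture 21 the lowest signal well above background was 38.5 units on day 2 and 35.9 on day 4. The 75th percentile there was 338.1 and 207.6 units, so signal near background lay higher on day 4 after scaling. Its part in the rise in culture 21 was not tested.

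Of 15 tested G1 cyclins, kinases and E2F factors, 5 were called lower and 1 higher. The share called higher was near the 6.68% of all genes. Ccnd1, the cyclin gene that responds to growth factors, had levels of 3.24, 1.90 and 2.80 in day 4 myotubes and 6.42, 6.51 and 6.26 in proliferating myoblasts (13.5-fold lower, adjusted p = 0.00472 by limma). Its partner kinase gene Cdk4 fell 3.81-fold, while Ccnd3, a cyclin of differentiating muscle, had a log2 change of 0.79 ± 0.51 (adjusted p = 0.404). E2f1 fell 4.98-fold and the ubiquitin ligase gene Skp2 6.23-fold, whereas E2f2 rose 6.09-fold at 5.26, 5.29 and 5.17 in day 4 myotubes and 1.89, 3.14 and 2.87 in proliferating myoblasts (adjusted p = 0.0106). One probe of E2f7, above background on 2 day 4 arrays, fell 9.73-fold, but its other probe above background had a log2 change of 0.12. Lower calls numbered 1 without proliferating myoblast replicate 2 and 2 without day 4 myotube replicate 1 or 2, and E2f2 was not called without day 4 myotube replicate 1 or 2.

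Of 20 tested genes of cell cycle exit, 2 were called higher, against 6.68% of all genes. Cdkn1a, whose product p21 inhibits cyclin-dependent kinases, stood at 8.41, 8.03 and 7.69 in day 4 myotubes and at 6.00, 6.61 and 4.93 in proliferating myoblasts (4.58-fold, adjusted p = 0.0319 by limma). Cdkn1c, which encodes the related p57, was 6.14-fold higher at 6.01, 3.50 and 5.02 in day 4 myotubes, against 2.58, 2.47 and 1.64 in proliferating myoblasts (adjusted p = 0.0398). Cdkn1c was higher on days 1 and 2 than on day 4, at 8.31, 7.09 and 8.80 and then 8.86, 7.27 and 8.37. Neither was called without culture 21, nor without day 4 myotube replicate 1 or 3 or proliferating myoblast replicate 2 or 3, and 1 was called without day 4 myotube replicate 2.

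Of 30 tested genes of glycolysis and glycogen, 10 were called higher and 1 lower (median 1.07), and of 9 genes of creatine and phosphotransfer 5 were higher (median 2.83). The share of glycolysis and glycogen genes called lower was below the 5.17% of all genes. Pfkm, the muscle form of the enzyme that commits sugar to glycolysis, had levels of 8.40, 7.50 and 7.70 in day 4 myotubes and 4.70, 3.84 and 2.88 in proliferating myoblasts (16.6-fold, adjusted p = 0.0057 by limma). The glucose transporter gene Slc2a4 was 22.9-fold higher, and the glycogen phosphatase subunit genes Ppp1r3a and Ppp1r3c were at least 12.7-fold and at least 11.2-fold higher. Ckb, the brain creatine kinase gene, was 7.13-fold higher beside the 95.3-fold of Ckm, and the creatine synthesis gene Gamt was 8.79-fold and the AMP deaminase gene Ampd1 41.0-fold higher. Without day 4 myotube replicate 1, 3 genes of the creatine list and 3 glycolytic genes were called higher, 5 without replicate 2, and 6 without replicate 3 or proliferating myoblast replicate 2 or 3.

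Several increases were those of a muscle form whose counterpart in other tissues was lower or did not pass the test. These pairs were chosen after their values were seen, and levels are not compared between the genes of a pair. Pgam2 was 9.71-fold higher (adjusted p = 0.0396 by limma) and Pgam1, at 5.59, 4.98 and 5.06 in day 4 myotubes and 7.10, 7.44 and 6.44 in proliferating myoblasts, was 3.44-fold lower (adjusted p = 0.0359), a call that was lost when any 1 array other than proliferating myoblast replicate 3 was left out. The fatty acid gatekeeper gene Cpt1b was 5.84-fold higher (adjusted p = 0.0478) and its liver form Cpt1a 11.6-fold lower (adjusted p = 0.00519). Tpm2 was 4.11-fold higher and Tpm4 5.40-fold lower, and beside Acta1 the cytoplasmic actin gene Actb was 4.97-fold lower (adjusted p = 0.0184). Cox6a2, the muscle subunit of cytochrome oxidase, was 27.4-fold higher (adjusted p = 0.00726), while Cox6a1 had a log2 change of -0.32 ± 0.45 (adjusted p = 0.769). Of the 6 fits with 1 array left out, Pgam2, Cpt1b and Tpm2 were called only in that without proliferating myoblast replicate 1. Acta1 was called in 2 of these fits, Tpm4 and Actb in 3 each, and Cpt1a and Cox6a2 in all 6. Slc2a1 had a log2 change of -0.58 ± 0.46 (adjusted p = 0.52), Pfkl -2.12 ± 0.58 (adjusted p = 0.0507, and 0.021 with the block) and Eno1 -0.83 ± 0.51 (adjusted p = 0.382). Eno3, the muscle enolase gene, had a log2 change of 1.61 ± 0.59 (adjusted p = 0.131, and 0.032 with the block).

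**Figure D4:**
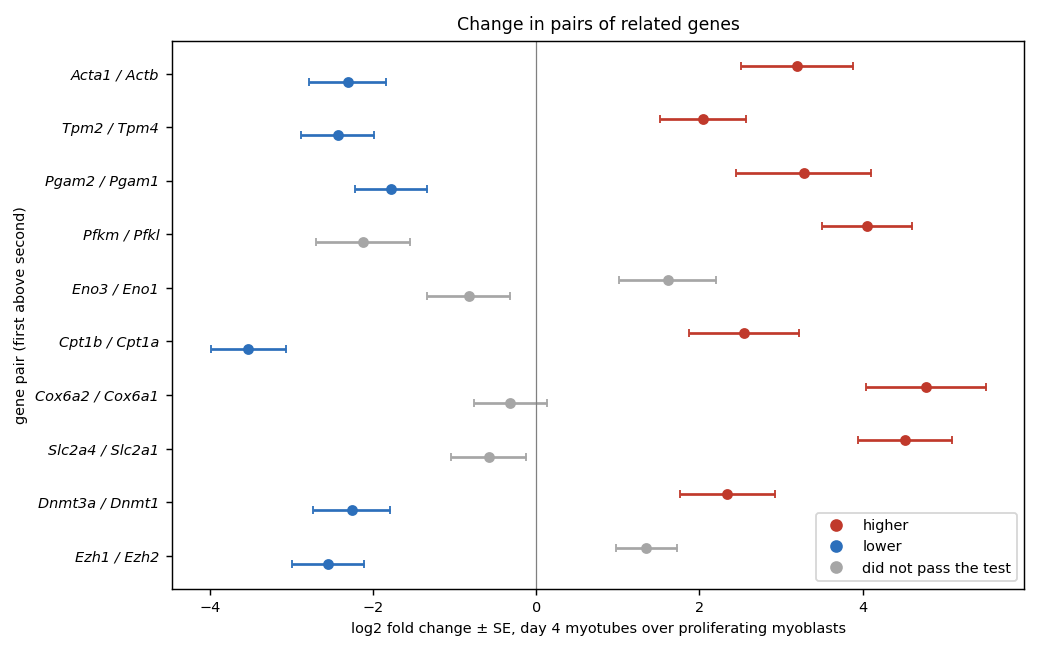
Log2 fold change ± SE, day 4 myotubes over proliferating myoblasts (n = 3 each), in 10 pairs of related genes, the first-named gene drawn above the second. Red was called higher, blue lower, and grey did not pass; the first gene of each pair lies to the right of 0.

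Among 43 tested genes of the respiratory chain, 5 were called higher and none lower (median 1.06), and 39 of the 43 had a positive change. Of all genes, 6.68% were called higher. Cox7a1 was 34.8-fold and Cox8b 15.5-fold higher, both muscle forms like Cox6a2, and Uqcrc2, a core subunit of complex III, was 3.08-fold higher. With the culture as a block 12 were higher and 1 lower, and 1 was called without day 4 myotube replicate 1 or 2 or proliferating myoblast replicate 2 or 3. Of 26 tested genes of the citric acid cycle and mitochondrial coactivators, 7 were higher (median 0.96), among them the orphan receptor gene Esrrb (20.6-fold), the pyruvate dehydrogenase kinase genes Pdk2 (8.63-fold) and Pdk4 (6.17-fold), and Mdh1 (5.35-fold). Of 22 genes of fatty acid use, 11 were higher and 1, Cpt1a, lower (median 1.45), the latter share near the 5.17% of all genes. Acsl6, which activates fatty acids, was 34.6-fold, with 2 proliferating arrays above background, Ucp2 13.8-fold and Ucp3 13.4-fold higher, and the uptake receptor gene Cd36 was at least 14.2-fold higher. With 1 array left out at a time, the higher calls of the citric acid cycle list numbered 2 to 6 and those of the fatty acid list 2 to 10. The citric acid cycle list was lowest without day 4 myotube replicate 1 or proliferating myoblast replicate 2, and the fatty acid list without day 4 myotube replicate 1 or 2.

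Ribosome biogenesis had 2 of 25 tested genes called lower, Fbl (3.88-fold) and Gar1 (3.13-fold), and 23 of 25 changes were negative (median -0.84). The share called lower was near the 5.17% of all genes. With the block 6 were lower, and without culture 21 or without any 1 array other than proliferating myoblast replicate 1 none was called. Fbl was called in none of the 6 fits with 1 array left out. No translation factor passed among 12 tested. Eef1a1 had a log2 change of -0.32 ± 0.49 (adjusted p = 0.795 by limma) and Eef1a2, the form of adult muscle, 2.17 ± 1.04 (adjusted p = 0.245), at -2.03, -2.39 and -1.60 in day 4 myotubes and -1.48, -5.13 and -5.92 in proliferating myoblasts, with 1 proliferating array above background. The initiation factor gene Eif6 had a log2 change of -0.71 ± 0.51 (adjusted p = 0.469). Of 21 genes of proteolysis and autophagy 4 were called higher, against 6.68% of all genes. They were Capn3, the muscle ubiquitin ligase gene Trim63 (15.3-fold), Tfeb (8.04-fold) and Map1lc3a (5.73-fold), and 1 to 4 were called with 1 array left out. Of 7 small heat shock proteins, chaperones abundant in muscle, 4 were called higher, Hspb7 (28.1-fold), Hspb3 (15-fold), Hspb2 (7.31-fold) and Hspb6 (4.86-fold), and 1 to 6 were called with 1 array left out.

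Cytoskeletal genes that respond to YAP and serum response factor were lower, with 9 of 21 tested called lower and none higher (median -1.55). Tagln2, which encodes an actin-bundling protein, had levels of 5.08, 4.37 and 4.60 in day 4 myotubes and 8.36, 7.46 and 7.32 in proliferating myoblasts (8.16-fold lower, adjusted p = 0.00683 by limma). The calponin gene Cnn2 fell 7.04-fold and the filamin gene Flna 5.94-fold. The calls fell to 2 without day 4 myotube replicate 1 or 2 or proliferating myoblast replicate 2. Of 32 matrix genes 3 were called higher and 2 lower (median 0.09), shares near the 6.68% and 5.17% of all genes. Postn was at least 4.58-fold higher, the metalloproteinase inhibitor gene Timp3, above background on 2 proliferating arrays, 13.7-fold and the collagen cross-linking gene Loxl1 5.71-fold, while the laminin gene Lamb1 was 4.29-fold and Col18a1 3.26-fold lower. With 1 array left out, 0 to 4 matrix genes were called higher, the fewest without proliferating myoblast replicate 2, and 0 to 3 lower. Col18a1 was called in none of these 6 fits.

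In the list of FGF and MAP kinase responses, 6 of 19 tested genes were called lower and 2 higher (median -0.62). The 2 higher ones were Fgf21 and the FGF antagonist gene Spry1. Spry1 kept its call in all 6 fits with 1 array left out, at log2 changes of 2.75 to 3.03. Fosl1, a subunit of the AP-1 factor, stood at -2.06, -2.66 and -0.10 in day 4 myotubes and at 2.55, 3.10 and 3.01 in proliferating myoblasts (22.5-fold lower, adjusted p = 0.00669 by limma). Hmga2 fell 15.2-fold, Etv4, which encodes an ETS factor induced by FGF, 13.6-fold and the MAP kinase phosphatase gene Dusp4 7.36-fold. The proliferating medium alone held basic FGF, and that difference cannot be told apart from differentiation. Lower calls numbered 3 without day 4 myotube replicate 1 or 2 or proliferating myoblast replicate 2, and 9 without proliferating myoblast replicate 1. Higher calls numbered 1 without day 4 myotube replicate 2 or 3 or proliferating myoblast replicate 2 or 3, and Fgf21 was then lost. The hormone gene Fgf21 was 14-fold higher, at 2.26, 6.28 and 4.40 in day 4 myotubes and 1.42, 0.50 and -0.42 in proliferating myoblasts (adjusted p = 0.0406). In the IGF, myostatin and TGF-beta axis 3 of 25 were higher, against 6.68% of all genes. They were Tgfb3 (10.3-fold) and the activin antagonist genes Fst (6.44-fold) and Fstl3 (5.14-fold). Of these, Tgfb3 was called in all 6 fits with 1 array left out, and Fstl3 only in that without proliferating myoblast replicate 1. Fst was not called without day 4 myotube replicate 2 or 3 or proliferating myoblast replicate 3. Igf2 had a log2 change of 1.51 ± 0.58 (adjusted p = 0.144), and Mstn, the myostatin gene, was not tested, as neither group measured it above background on all 3 arrays. In the Notch pathway Heyl was higher, and Dlk1 (at least 7.05-fold) and Lfng (at least 5.43-fold, with 1 day 4 array above background) were lower, of 15 tested. The share called higher was near the 6.68% of all genes. Heyl was not called without day 4 myotube replicate 1 or 2 or proliferating myoblast replicate 3.

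Inflammatory cytokines and chemokines were lower in 7 of 12 tested genes and higher in 1 (median -2.24), against 5.17% and 6.68% of all genes. Besides Cxcl12 and Tnfsf11, the monocyte attractant gene Ccl7 (9.26-fold) and the macrophage growth factor gene Csf1 (8.05-fold) fell. Csf1 stood at 2.48, 2.21 and 4.18 in day 4 myotubes and at 5.44, 6.23 and 6.22 in proliferating myoblasts (adjusted p = 0.0162 by limma). Lower calls numbered 4 without day 4 myotube replicate 1 or 2 or proliferating myoblast replicate 3, and 3 without proliferating myoblast replicate 2. Il15, a cytokine gene that muscle expresses, was at least 2.84-fold higher, a call lost without day 4 myotube replicate 1 or 2 or proliferating myoblast replicate 2 or 3. Immediate early genes had 4 of 20 called higher and 1 lower (median 0.08), the latter share near the 5.17% of all genes. Nr4a2, an orphan receptor gene, fell 47.5-fold at -2.23, -1.52 and -0.65 in day 4 myotubes, against 3.03, 4.64 and 4.64 in proliferating myoblasts (adjusted p = 0.0041), with 2 day 4 arrays above background. Atf3 (5.91-fold), Egr2 (5.80-fold), Fos (3.78-fold) and Egr1 (3.56-fold) were higher, and 2 proliferating arrays measured Egr2 and Fos above background. With the block the adjusted p was 0.0554 for Egr1 and 0.051 for Egr2, and with any 1 array left out at most 1 of the higher calls was made. Egr1 and Fos were called in none of these 6 fits.

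Interferon-response genes were called higher in 9 of 20 tested members and lower in none (median 2.35), against 6.68% and 5.17% of all genes. Ifit3, which encodes an antiviral protein, had levels of 1.88, -0.43 and 2.30 in day 4 myotubes and -3.11, -4.01 and -4.15 in proliferating myoblasts (32.2-fold, adjusted p = 0.00667 by limma). Usp18, whose product removes ISG15 from proteins, was at least 16.6-fold, Isg15 14.7-fold and Oasl2 13.5-fold higher. Usp18 was above background on 1 proliferating array, and Ifit3 and Oasl2 on 2. Isg15 stood at 6.32, 3.28 and 5.54 in day 4 myotubes and at 2.31, 1.05 and 0.14 in proliferating myoblasts (adjusted p = 0.0248). In each of Ifit3, Usp18, Isg15 and Oasl2 culture 26 was the lowest of the day 4 arrays.
The promoter of Isg15, at chr4:156200769-156201068 of GRCm38.p6 on the minus strand from RefSeq, is shown for its interferon elements (GAAA, any 2 bases, GAAA), which overlap and are in capitals.
Isg15: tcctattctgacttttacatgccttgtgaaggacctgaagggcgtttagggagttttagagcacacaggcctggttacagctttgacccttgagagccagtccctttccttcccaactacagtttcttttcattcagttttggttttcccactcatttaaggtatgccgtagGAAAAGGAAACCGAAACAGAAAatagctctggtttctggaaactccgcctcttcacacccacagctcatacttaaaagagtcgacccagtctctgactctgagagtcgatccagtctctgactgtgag

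This element was in 7 of the 8 promoter windows of called interferon genes (87.5%), on either strand, against 3.29% of tested genes and 3.99% of all windows. With 1 array left out, 1 call was made without day 4 myotube replicate 1 or proliferating myoblast replicate 2, and 2 without replicate 3 of either group. Higher calls over all genes were also fewer in these fits. There were 11 calls without day 4 myotube replicate 2 and 9 without proliferating myoblast replicate 1. Ifit3 was called in all 6 fits, Oasl2 in 3, and Isg15 and Usp18 in 2. Log2 changes over these fits were 3.24 to 4.77 for Isg15 and 3.95 to 6.05 for Usp18. The cultures differed in time, and Isg15 in culture 21 had levels of 2.31 in proliferating myoblasts, 4.77 on day 1, 7.13 on day 2 and 6.32 on day 4. In culture 28 it stood at 0.14, 1.61, 1.40 and 5.54 over the same stages, and in culture 26 at 1.05, 1.12, 1.82 and 3.28. From day 2 to day 4, 19 of the 20 members were higher in culture 28 (median difference 2.56), 18 in culture 26 (median 1.13) and 13 in culture 21 (median 0.60). These are single arrays per culture and stage, and the difference between cultures was not tested. Of the 20 members, 11 were above background on all 6 arrays of day 4 myotubes and proliferating myoblasts. In culture 21 the 75th percentile was 338.1 units on day 2 and 207.6 on day 4. The lowest signal well above background there was 38.5 and 35.9 units, and the part of this in the median of 0.60 was not tested.

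**Figure D5:**
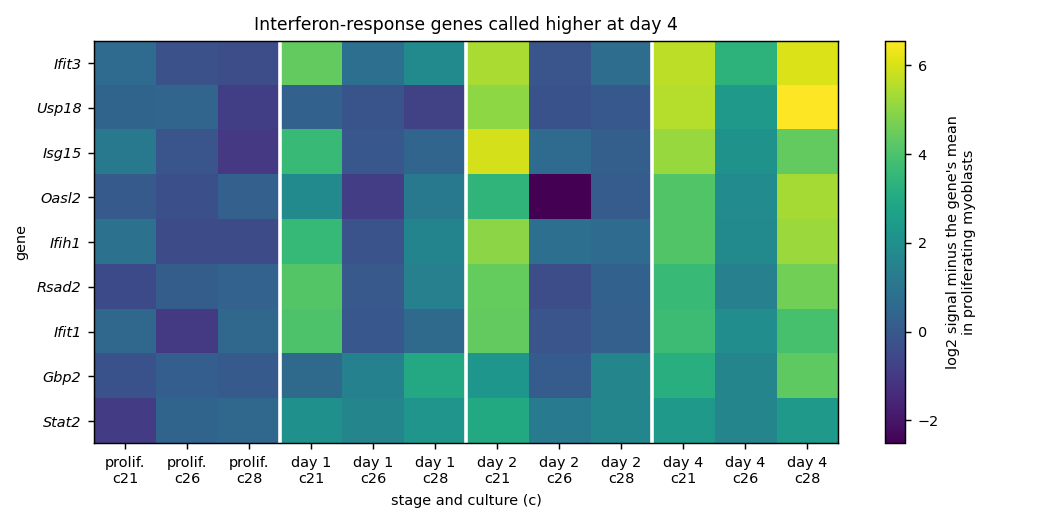
Level of the 9 interferon-response genes called higher on day 4, as log2 signal minus the gene's mean in proliferating myoblasts, on the 12 arrays of cultures 21, 26 and 28 (c21, c26 and c28) in proliferation and on days 1, 2 and 4. On day 2 culture 21 stands above the other two in most of these genes, and on day 4 culture 26 is the lowest.

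Of 24 tested genes of the DNA methylation machinery, 2 were called higher and 2 lower (median -0.07), shares near the 6.68% and 5.17% of all genes. Uhrf1, which guides the maintenance enzyme to newly copied DNA, had levels of 0.52, -1.66 and 0.63 in day 4 myotubes and 4.64, 4.62 and 3.94 in proliferating myoblasts (23.8-fold lower, adjusted p = 0.00638 by limma). Dnmt1, the maintenance methyltransferase gene, fell 4.81-fold at -0.66, -1.38 and -0.53 in day 4 myotubes, against 0.92, 2.08 and 1.25 in proliferating myoblasts (adjusted p = 0.0202). The de novo methyltransferase gene Dnmt3a went the other way, at 2.32, 1.31 and 1.33 in day 4 myotubes and -1.77, -0.36 and 0.08 in proliferating myoblasts (5.06-fold, adjusted p = 0.0378), with 2 proliferating arrays above background. Dnmt3a was not called without day 4 myotube replicate 1, 2 or 3 or proliferating myoblast replicate 2, and Dnmt1 not without day 4 myotube replicate 1 or 2 or proliferating myoblast replicate 2 or 3. Dnmt3b had a log2 change of -0.23 ± 0.43 (adjusted p = 0.841). Apobec2, a muscle member of the deaminase family, was 13.8-fold higher (adjusted p = 0.00553).

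The Tet genes, whose products oxidise methylated cytosine, did not pass the test. Log2 changes were 0.73 ± 0.46 for Tet1 (adjusted p = 0.393 by limma), 2.25 ± 0.95 for Tet2, above background on 2 proliferating arrays (adjusted p = 0.186, and 0.035 with the block) and 0.17 ± 0.53 for Tet3 (adjusted p = 0.91). The glycosylase gene Tdg had a change of -0.37 ± 0.39 (adjusted p = 0.668). Of 23 tested Polycomb and SWI/SNF genes, 2 were called lower, against 5.17% of all genes. Ezh2, the histone methyltransferase gene of dividing cells, stood at -0.09, -0.26 and 0.26 in day 4 myotubes and at 1.94, 2.57 and 3.08 in proliferating myoblasts (5.88-fold, adjusted p = 0.0106), and Cbx2 was 2.82-fold lower. Ezh2 was not called without day 4 myotube replicate 1 or 2 or proliferating myoblast replicate 2, and Cbx2 was called in none of the 6 fits with 1 array left out. Ezh1, the counterpart of Ezh2 in resting cells, had levels of 3.95, 3.84 and 3.61 in day 4 myotubes, against 2.29, 2.64 and 2.43 in proliferating myoblasts, which did not overlap (log2 change 1.35 ± 0.38, adjusted p = 0.0554, and 0.0457 with the block). Among 15 tested imprinted genes Mest fell 14-fold, Dlk1 was lower and Cdkn1c higher, the last not without day 4 myotube replicate 1 or 3 or proliferating myoblast replicate 2 or 3. The share of imprinted genes called higher was near the 6.68% of all genes. Of 9 genes of oxygen and iron handling, Mb and the transferrin receptor gene Tfrc (7.35-fold) were higher and the ferritin light chain gene Ftl1 (3.88-fold) lower. Tfrc was not called without day 4 myotube replicate 2 or 3 or proliferating myoblast replicate 2 or 3, and Ftl1 was called in none of the 6 fits with 1 array left out.

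Skeletal muscle markers were measured in both groups, with 7 of 11 tested called higher, and Myf5 was the marker measured on no array. Calls fell to 3 without day 4 myotube replicate 2, and to 4 without day 4 myotube replicate 1 or 3 or proliferating myoblast replicate 2. The summed signal of all 12 muscle markers, in units of the array's 75th percentile, was 4156 to 6270 in day 4 myotubes and 629.0 to 1331 in proliferating myoblasts. No fibroblast marker passed among 7 tested, and Lum and Dpt were above background on no array. Col1a1, a matrix gene of fibroblasts, had a log2 change of 2.59 ± 1.08 (adjusted p = 0.18 by limma, and 0.0324 with the block) and Dcn -1.43 ± 0.45 (adjusted p = 0.0839), with Col1a1 above background on 1 proliferating array and Dcn on 2 day 4 arrays. Fibroblast markers summed to 37.5 to 100.4 in day 4 myotubes and 28.5 to 47.1 in proliferating myoblasts. Of 7 smooth muscle and pericyte markers, Abcc9 (14.6-fold, with 2 proliferating arrays above background) and Smtn (3.52-fold) were higher and Rgs5 (at least 11.5-fold) lower, while Myh11 was measured on no array, and these markers summed to 316.0 to 410.0 in day 4 myotubes and 147.0 to 325.8 in proliferating myoblasts. Of the 6 fits with 1 array left out, Smtn was called in that without proliferating myoblast replicate 1. Cldn5 was the 1 endothelial marker called higher (at least 4.07-fold) of 5 tested, with Cdh5 measured on no array, and was not called without day 4 myotube replicate 1 or 2 or proliferating myoblast replicate 2 or 3. The 12 endothelial markers summed to 10.1 to 43.3 in day 4 myotubes and 11.2 to 50.5 in proliferating myoblasts. Their part in the results above was not tested.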

How the data were processed

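RNA of 3 day 4 myotube and 3 proliferating myoblast samples was labelled with Cy3 and measured on 1-colour Agilent arrays, per the labels' protocols. Per the file headers, the deposited processed signal is an intensity on a linear scale made by Feature Extraction, with background subtraction and detrending, and version 10.7.3.1 is given in the submitters' processing notes. The authors also deposited a matrix of log2 values, used as an alternative; its 6 columns all had a median of 6.72, and its normalization is not given in the sources used here.

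Processed signals were put on the log2 scale, and the 75th percentile of an array's 59305 spots that are not controls was subtracted. Spots out of line were left out and spots of a probe averaged, giving 55681 probes. RefSeq named 26685 probes by accession, 2538 by symbol and 474 by synonym, and 25984 kept the file's name. Each of 36091 gene names was represented by its brightest probe. The 17466 genes well above background on all 3 arrays of at least 1 group were tested with limma 3.58.1 (lmFit and eBayes, R 4.3.3) on the 6 arrays, with Benjamini-Hochberg adjustment over all of them, and 13 values missing in the tested set were left out of single fits. For a group with no array above background, the fold is a bound, computed per array against either the lowest signal well above background or the probe's measured signal, whichever was higher. No array had saturated spots, and the number of arrays limits the precision. No label says that the cultures came from separate animals, so p-values reflect only how far these samples differ.

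Titles give the same culture number to 1 sample of each group, and this was taken as a pairing before the fits were compared. Deviations from the group means correlated at r = 0.578, -0.164 and 0.362 for cultures 21, 26 and 28. The main fit had no block and so did not use this pairing, and a gene said not to pass the test did not pass in that fit. With the culture as a block 878 genes gained a call and 11 lost it. Blocked values stand beside results whose call they change. The 6 arrays lay on 3 slides scanned on 1 day, each slide with 1 array of each group.

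Genes named are the 8 called genes with the largest fold in each direction that have a RefSeq symbol, are measured on all 6 arrays and do not overlap, the 4 with the largest bound in each direction, up to 4 called members per list and direction (or 2 members of a list with no call), and a fixed set of regulators. Other list members are given as values, chosen after they were seen. A single gene that falls under this rule is not reported here. The members and lists were chosen with earlier results of these data known, and lists are described without tests. Promoters are RefSeq windows on GRCm38.p6, searched on both strands.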

Additional observations from a re-analysis of the deposited data

How the results depend on the processing

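Of the alternatives tried, those with slide as a block on the 6 arrays, normexp background correction, quantile normalization, the authors' values, the filter to genes above background on all 6 arrays, the mean of all probes, and an intensity trend with a robust prior kept both counts within 1.5 times of 1167 higher and 903 lower calls. With the culture as a replicate block on the 6 arrays, calls were 1695 higher and 1242 lower, with 878 genes gained and 11 lost. Higher and lower calls were 2661 and 1881 with 21 samples of 7 groups, 2235 and 1591 with 12 samples of 4 groups, 2529 and 1833 with the replicate block on 12 samples, and 2768 and 1981 with slide as a block on 21 samples. These fits take the spread from more samples. Array quality weights gave 2732 and 2194 and moved the median change of all genes from 0.03 to 0.22, and the cause was not tested. Without a filter there were 192 and 97 calls among 36091 genes. More genes enter the adjustment in this fit, and the cause of the lower counts was not tested. Leaving out 1 replicate gave 451 to 1388 higher and 291 to 1278 lower calls, and 82 of the 179 called genes named here kept their call in all 6 such fits, 8 in none, and none changed sign. The median change of all genes was 0.12 without proliferating myoblast replicate 1 and 0.19 without day 4 myotube replicate 3. Without culture 21 in both groups, an alternative chosen after seeing the data, 1386 and 1189 genes were called. Reversals were seen in Tpm3, whose log2 change was 1.24 with the mean of all probes, where its 2 probes disagree, and in 3 genes that had not passed. Array weights gave 0.048 for Dnmt3b and 0.077 for Eef1a1. With 1 replicate left out, Dnmt3b ranged from -0.40 to 0.066, Tet3 from -0.22 to 0.69 and Eef1a1 from -0.57 to 0.053. The cause was not tested. Signal over background limits the culture 21 arrays most, where 39.1% of spots on day 4 and 41.2% in proliferation were well above background.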
